A study of Mus musculus with 2 samples.

Results

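The proliferation genes are 44 protein-coding mouse genes whose products copy the chromosomes or carry cells through mitosis. They were taken as a named list, and each symbol was matched to its gene identifier in the deposited tables. All 44 were found in both libraries, out of 22028 protein-coding and 55536 annotated genes. By known role, 17 act in or before DNA replication and 27 act in G2 and mitosis. The study measured total RNA in gastrocnemius, a calf muscle, of male B6CASTF1/J mice, the hybrid offspring of C57BL/6J and CAST/EiJ parents. Mice were 10 days old, 300 ng of RNA entered each library, and ERCC spike-in RNAs were added. There is 1 group of 2 biological replicates, without a second condition. The labels number the animals differently but give both the same donor code, and whether the muscles came from 1 litter is not stated.

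A cell that enters the cycle first loads the MCM helicase onto replication origins, copies its DNA with the help of the sliding clamp PCNA and a supply of nucleotides, and then condenses and separates its chromosomes under the kinase CDK1. Genes of the replication step are classically switched on by E2F factors late in G1. Mitotic genes are repressed in resting cells by the DREAM complex and later activated by MYBL2 and FOXM1, through a promoter element named the cell cycle genes homology region, or CHR, often with CCAAT boxes upstream. In the growing muscle of young mice, dividing cells include satellite cells, which add nuclei to fibres, and cells of connective tissue, vessels and blood. Muscle fibres themselves have left the cycle. In bulk RNA, fewer cycling cells and less RNA per cycling cell cannot be told apart.

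Proliferation genes were present at low levels in both muscles. Of the 44, 43 reached a level of 1 TPM (transcripts per 1e6, scaled for length) in both libraries, against 51.4% of protein-coding genes. Among cell cycle genes outside the list, 33 of 41 replication genes (80.5%) and 63 of 75 mitotic genes (84.0%) did so. Their median TPM was 4.43 for replicate 1 and 4.16 for replicate 2, or 4.29 ± 0.191 TPM (SD, n = 2). Protein-coding genes that reached 1 TPM had medians of 8.67 and 8.31 TPM in the same libraries. Summed over the list, the members held 20416 expected counts in replicate 1, or 0.0665% (95% exact binomial interval 0.0656% to 0.0674%) of protein-coding counts. In replicate 2 they held 17202, or 0.0577% (0.0568% to 0.0586%). The mitotic members accounted for most of that gap between the animals. They summed to 13560 counts in replicate 1 and 10967 in replicate 2, while the replication members summed to 6856 and 6235.

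Depth was 38874862 expected counts for replicate 1 and 38160786 for replicate 2, with 0.741% and 0.735% of them on spike-ins. At that depth 3 counts on 1000 effective bases are worth 0.0925 and 0.0924 TPM, so the lowest members lie well above the counting floor. Markers of the labelled tissue were abundant: 6 fibre genes, among them Acta1 and Ckm, summed to 78416 and 79245 TPM in the libraries of replicates 1 and 2. Intervals here cover counting error alone, since the reads carried no molecular identifiers and copies of 1 molecule may be counted repeatedly. Reads of these hybrids were aligned to mm10, a C57BL/6J genome, and any loss of CAST/EiJ reads was not tested.

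The promoters of the members differed in letters by role. RefSeq promoter windows (GRCm38.p6, 250 bases before to 50 after the annotated transcript start) were at hand for 36 of the 44 members. Those of Mcm4, Gins2, Ccne2, Ccna2, Foxm1, Aurkb, Kif20a and Tpx2 were not used here. CHR letters were searched as TTTGAA and as its known variant TTCGAA. The CCAAT box was searched by the letters in its name. E2F letters were searched as TTCCCGC and, in 3 further forms of the same site, as TTGGCGC, as the variant TTCGCGC and as the variant TTGCCGC. Both strands were read. E2F letters can share bases with a CCAAT box or with each other. The following 6 windows are shown as examples, 2 of them of helicase subunits with E2F letters. The other 4 are of mitotic genes with CHR letters that were at least 1.2-fold higher in replicate 1. All 6 were chosen after their values were seen. They are written 5′ to 3′ in the direction of the gene, and capitals mark the matched letters.

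Mcm3 promoter (chr1:20820263-20820562, minus strand): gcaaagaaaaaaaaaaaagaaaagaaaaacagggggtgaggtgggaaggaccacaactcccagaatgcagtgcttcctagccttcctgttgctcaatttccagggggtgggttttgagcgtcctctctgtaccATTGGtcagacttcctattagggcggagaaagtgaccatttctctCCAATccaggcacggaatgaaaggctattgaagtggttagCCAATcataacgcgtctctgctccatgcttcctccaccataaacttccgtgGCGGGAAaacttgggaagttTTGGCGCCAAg

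Mcm6 promoter (chr1:128359656-128359955, minus strand): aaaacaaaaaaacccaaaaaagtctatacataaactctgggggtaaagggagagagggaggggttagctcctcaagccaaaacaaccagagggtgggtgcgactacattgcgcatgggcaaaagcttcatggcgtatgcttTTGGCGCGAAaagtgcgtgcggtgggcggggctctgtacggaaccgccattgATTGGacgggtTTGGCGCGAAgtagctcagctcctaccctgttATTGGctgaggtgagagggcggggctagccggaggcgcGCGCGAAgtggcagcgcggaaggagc

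Mki67 promoter (chr7:135716330-135716629, minus strand): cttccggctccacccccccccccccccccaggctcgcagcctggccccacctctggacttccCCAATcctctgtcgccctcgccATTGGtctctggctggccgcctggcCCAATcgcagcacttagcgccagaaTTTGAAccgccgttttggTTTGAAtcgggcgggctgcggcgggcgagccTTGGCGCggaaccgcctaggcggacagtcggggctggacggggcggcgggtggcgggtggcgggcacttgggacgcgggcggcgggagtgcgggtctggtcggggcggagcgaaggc

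Cdk1 promoter (chr10:69352863-69353162, minus strand): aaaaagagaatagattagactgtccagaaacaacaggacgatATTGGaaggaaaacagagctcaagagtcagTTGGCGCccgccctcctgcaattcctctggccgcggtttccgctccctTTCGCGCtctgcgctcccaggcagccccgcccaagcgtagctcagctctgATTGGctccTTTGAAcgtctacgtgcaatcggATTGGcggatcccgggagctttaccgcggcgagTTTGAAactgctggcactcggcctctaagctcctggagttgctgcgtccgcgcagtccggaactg

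Cenpf promoter (chr1:189688037-189688336, minus strand): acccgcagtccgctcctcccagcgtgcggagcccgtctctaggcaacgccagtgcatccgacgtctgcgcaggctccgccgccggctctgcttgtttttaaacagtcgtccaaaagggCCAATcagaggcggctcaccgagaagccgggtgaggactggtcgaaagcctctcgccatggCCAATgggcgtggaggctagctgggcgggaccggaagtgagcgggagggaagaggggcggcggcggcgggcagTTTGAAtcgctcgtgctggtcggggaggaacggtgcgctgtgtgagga

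Kif11 promoter (chr19:37376132-37376431, plus strand): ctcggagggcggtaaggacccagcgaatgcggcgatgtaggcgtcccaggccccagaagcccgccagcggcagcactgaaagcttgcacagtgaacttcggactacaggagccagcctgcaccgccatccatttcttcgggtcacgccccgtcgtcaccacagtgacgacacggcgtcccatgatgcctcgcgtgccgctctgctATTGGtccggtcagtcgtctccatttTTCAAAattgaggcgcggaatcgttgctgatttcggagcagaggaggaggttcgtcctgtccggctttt

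In the Mcm3 window the E2F letters stand at 19, 39 and 42 bases after the start, counting the start as 0, and no CHR letters occur. Mcm6 has E2F letters at -109, -106, -46, -43 and 24. Overlapping runs on opposite strands make up the pairs at -109 and at -46. Among the mitotic windows, Cdk1 has CHR letters at -71 and -15, each preceded by CCAAT letters on the reverse strand at -80 and -48. Cenpf has CHR letters at 2 and CCAAT at -71. In Kif11 the CHR letters are read on the reverse strand at -19, with CCAAT letters at -45. Mki67 holds 2 copies of the CHR letters, at -116 and -98. Cdk1 and Mki67 also hold E2F letters, at -178 and -130 in Cdk1 and at -67 in Mki67.

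Over all windows, CHR letters occurred in 2 of 14 replication members (14.3%) and in 17 of 22 mitotic members (77.3%), against 21.7% of the 27025 genes in the RefSeq table. The 2 replication members were Mcm2 and Mcm7. The 5 mitotic members without them were Birc5, Ccnb1, Cenpe, Melk and Nusap1. E2F letters ran the other way, in 8 of 14 replication members (57.1%) and 3 of 22 mitotic members (13.6%), against 10.9% of all genes. The 3 mitotic members with E2F letters were Ccnb1, Cdk1 and Mki67. CCAAT letters were common to both sets, at 57.1% of replication and 86.4% of mitotic members, against 41.1% of all genes. A match describes letters in a window, and binding was not measured.

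In mitotic members the CHR letters lay mostly near the start. Positions could not be compared between the sets, because only 2 replication members had CHR letters. CHR letters whose first base lay from 60 bases before to 40 after the start, a range chosen after the positions were seen, were found in 0 of 14 replication members and 16 of 22 mitotic members (72.7%). Of all genes, 6.58% had CHR letters there. The mitotic member with CHR letters only outside that range was Mki67. In 13 of the 17 mitotic members the CHR letters nearest the start were listed in the forward sense. These include Bub1, whose TTCGAA reads the same on both strands and so has no sense. The sense was not counted over all genes. Every mitotic member with CHR letters also had CCAAT letters, at a median of 28.5 bases between the centres of the nearest pair. That distance was at most 50 bases in 12 of the 17 (70.6%), against 43.0% of all genes with both in 1 window, whose median was 61.0 bases. Pairs were taken in any order, so CCAAT letters could also lie after the CHR letters or share bases with them. The number of matches in a window was not accounted for. In the longer lists of other cell cycle genes, CHR letters were in 8 of 30 other replication genes (26.7%) and 45 of 64 other mitotic genes (70.3%). The share in other replication genes was above the 21.7% of all genes, and that in replication members below it. E2F letters were in 20 of those 30 replication genes (66.7%) and 18 of those 64 mitotic genes (28.1%), against 13.6% of mitotic members and 10.9% of all genes.

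**Figure D1:**
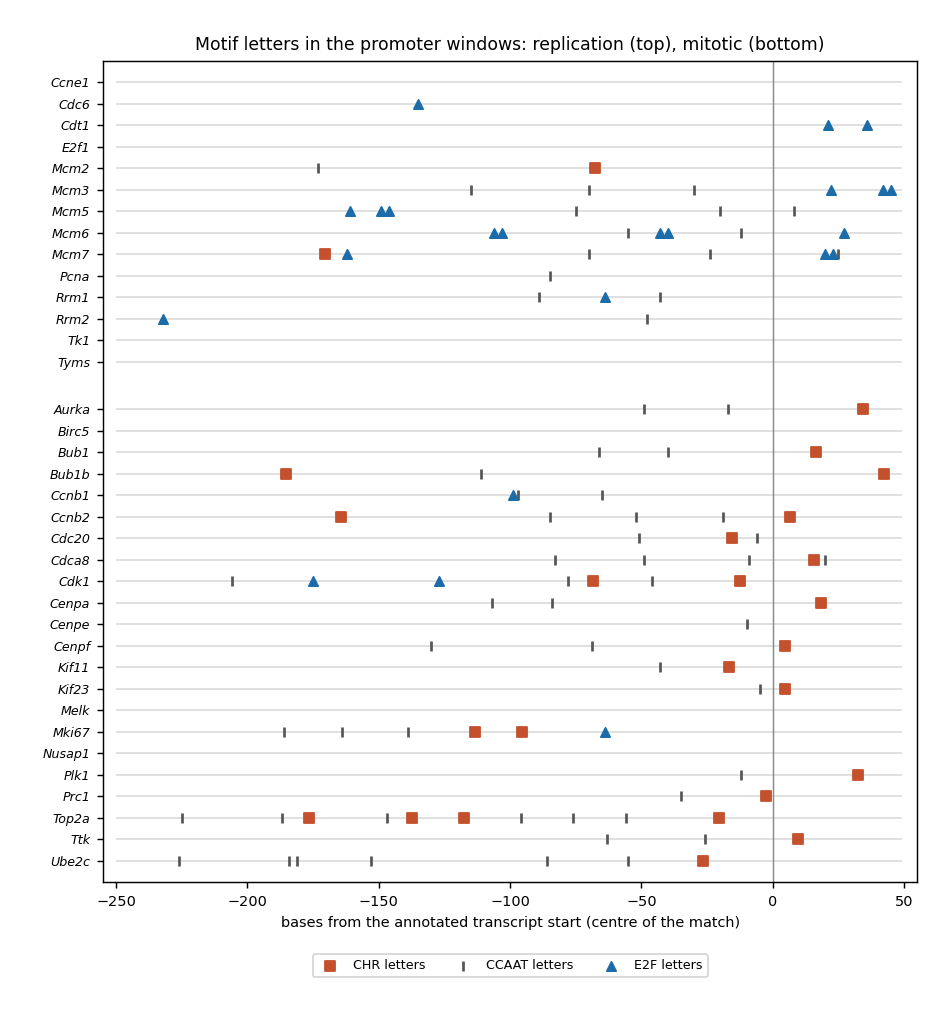
Matches to CHR, CCAAT and E2F letters in the promoter windows of 36 proliferation genes, 1 window a gene, with replication members above and mitotic members below. The horizontal axis is the distance in bases from the annotated start to the centre of the match, and CHR matches of mitotic members gather near the start.

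**Figure D2:**
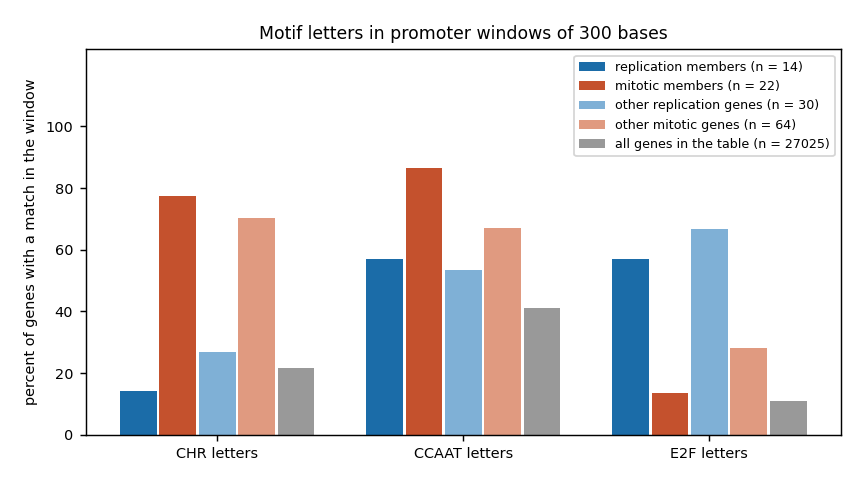
Percent of genes whose promoter window of 300 bases holds each kind of letters, for the replication and mitotic members, the other cell cycle genes and all 27025 genes in the table. CHR letters reach 77.3% in mitotic members against 14.3% in replication members, and E2F letters show the opposite order.

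Levels of the replication members were led by Pcna and Rrm1, with Mcm7 after them. Pcna, the sliding clamp that tethers DNA polymerases, was the highest of all 44 members at 17.96 TPM in replicate 1, with 16.76 TPM in replicate 2. That placed it above 72.0% of detected protein-coding genes. Rrm1, the large subunit of ribonucleotide reductase, had 10.8 and 9.18 TPM. The small subunit Rrm2, which is the cycle-regulated partner, had 5.74 and 5.54 TPM, so that Rrm1 exceeded it by 1.89-fold in replicate 1 and 1.66-fold in replicate 2. The thymidylate makers Tk1 and Tyms, which work by salvage and by methylation of dUMP, averaged 6.21 ± 0.198 and 5.79 ± 0.714 TPM (SD, n = 2 each).

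The subunits of the MCM helicase, which work as a ring of equal parts, were close to each other but not equal. Mcm7 was the highest at 8.6 and 7.05 TPM and Mcm4 the lowest at 4.13 and 3.94 TPM, a gap of 2.08-fold in replicate 1 and 1.79-fold in replicate 2. Between them lay Mcm6 at 6.19 ± 0.453, Mcm2 at 6.05 ± 0.75, Mcm3 at 5.81 ± 0.0283 and Mcm5 at 4.87 ± 0.276 TPM (SD, n = 2 each). Gins2, a subunit of the GINS complex that completes the helicase, averaged 3.42 ± 0.658 TPM.

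The loading factors were lower than the helicase they load. Cdt1 had 2.45 and 2.19 TPM. Cdc6 was the lowest of the 44 members, at 1.00 TPM for replicate 1 and 0.880 TPM for replicate 2, with 90 and 85 counts. It was also the single member under 1 TPM in a library. Cdt1 exceeded Cdc6 by 2.45-fold and 2.49-fold.

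Among the cyclins and their kinase, Cdk1, the driver of mitotic entry, led at 10.9 TPM for replicate 1 and 7.34 TPM for replicate 2. Its partners Ccna2, Ccnb2 and Ccnb1 averaged 6.80 ± 1.42, 4.86 ± 0.205 and 4.67 ± 0.325 TPM (SD, n = 2 each). By TPM, Cdk1 exceeded Ccnb1 by 2.44-fold in replicate 1 and 1.5-fold in replicate 2. In the second deposited table, in the layout of kallisto, the gap was 2.65-fold and 1.99-fold. On the log2 scale, counting intervals of replicate 1 over replicate 2 overlapped, at 0.18 to 0.62 for Cdk1 and -0.28 to 0.26 for Ccnb1. Whether the gap differed between the animals was not tested. The G1/S cyclins were lower. Ccne2 had 3.68 and 3.04 TPM, and Ccne1 had 1.31 and 1.44 TPM. The transcription factors of the pathway were low too, with Foxm1, which activates mitotic genes, at 3.29 ± 0.544 TPM and E2f1, which activates replication genes, at 2.50 ± 0.247 TPM.

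The chromosome proteins were the most abundant of the mitotic members. Top2a, the topoisomerase that untangles sister chromatids, had 14.4 and 11.8 TPM. Mki67, the source of the Ki-67 antigen that coats mitotic chromosomes, had 11.9 and 9.0 TPM. Because its transcript is long, Mki67 alone held 18.8% (95% exact binomial interval 18.3% to 19.4%) of the members' counts in replicate 1 and 16.9% (16.4% to 17.5%) in replicate 2. By gene TPM, Top2a lay above Mki67 in each library. The protein-coding transcript Top2a-201 alone, at 9.05 TPM for replicate 1 and 7.91 TPM for replicate 2, lay below Mki67-201 at 11.91 and 9.0 TPM.

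The mitotic kinases were the lowest of the larger roles, at a median of 2.56 TPM for replicate 1 and 2.34 TPM for replicate 2 over 7 genes. Aurkb, the kinase of the chromosomal passenger complex, had 4.33 and 4.42 TPM, and its paralog Aurka, which acts at spindle poles, had 2.56 and 2.34 TPM. The checkpoint protein Bub1b had 3.93 and 3.70 TPM, against 1.58 and 1.32 TPM for the checkpoint kinase Bub1. Plk1, which drives several steps of mitosis, averaged 2.54 ± 0.0566 TPM. Melk and the checkpoint kinase Ttk averaged 1.48 ± 0.134 and 1.38 ± 0.212 TPM (SD, n = 2 each). At the centromere, the histone variant Cenpa averaged 6.66 ± 0.912 TPM. The passenger proteins Birc5 and Cdca8 averaged 4.46 ± 0.544 and 2.83 ± 0.262 TPM. The kinetochore proteins Cenpf and Cenpe averaged 3.33 ± 0.276 and 1.77 ± 0.332 TPM.

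Of the spindle and cytokinesis genes, the microtubule bundler Prc1 averaged 7.46 ± 0.488 TPM and the midzone motor Kif23 6.18 ± 1.44 TPM. The spindle assembly factor Tpx2 averaged 3.99 ± 0.594, the cytokinesis motor Kif20a 3.27 ± 0.707, the bipolar spindle motor Kif11 3.14 ± 0.608 and the spindle protein Nusap1 2.47 ± 0.580 TPM (SD, n = 2 each). For the anaphase-promoting complex, its ubiquitin-conjugating enzyme Ube2c had 6.06 and 4.82 TPM, and its activator Cdc20 had 5.17 and 4.23 TPM.

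**Figure D3:**
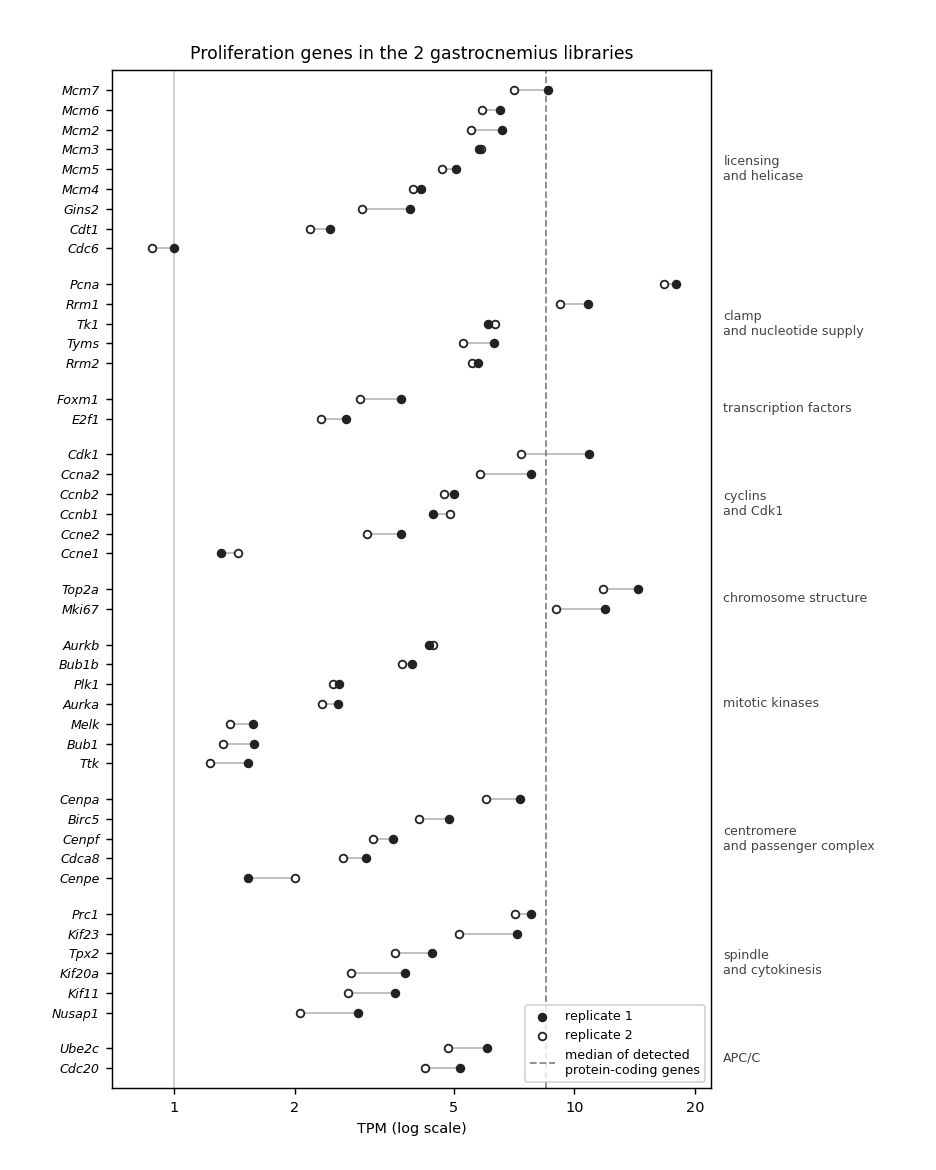
TPM of the 44 proliferation genes in replicate 1 (filled) and replicate 2 (open), grouped by role and sorted by mean within each. The dashed line is the median of detected protein-coding genes at 8.49 TPM, and most members lie to its left.

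The order of levels held between the animals as a whole but not gene by gene. Over the 44 members, Spearman's rho of TPM between the libraries was 0.977, as a description across genes of 2 libraries. When the members were ranked by mean TPM, only 5 of 43 neighbouring pairs had values that did not overlap between the libraries. Replication members were somewhat higher than mitotic members, with a median of 5.74 against 4.33 TPM for replicate 1 and 5.28 against 3.70 TPM for replicate 2. The log2 ratio of those medians was 0.46 ± 0.075 (SD, n = 2), or 1.38-fold. With means in place of medians the log2 ratio was 0.25, and in the second deposited table, in the layout of kallisto, it was 0.26. The longer lists of other cell cycle genes had the opposite order, by a small gap. Other replication genes had medians of 2.13 TPM for replicate 1 and 1.85 TPM for replicate 2, and other mitotic genes 2.37 and 1.95 TPM. The higher level of replication genes thus holds for the listed members only.

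Between the animals, mitotic members were higher in replicate 1 and replication members were nearly level. Ratios are log2 of replicate 1 over replicate 2 from expected counts, scaled by TMM (trimmed mean of M-values), and a member was counted as different from 1.2-fold upward. Of the 44 members, 37 had a ratio above 0, against 46.7% of the 13137 protein-coding genes whose mean count was at least 20. The median member ratio was 0.13, against -0.01 for those genes. At least 1.2-fold higher in replicate 1 were 10 members, where the share of all genes was 10.8%. At least 1.2-fold lower were 0 members, where the share was 10.3%. The counting interval lay above 0 for 12 members and below 0 for 0 members, against 13.2% and 19.1% of all genes. None was past 1.5-fold in either direction, against 2.44% of all genes higher and 1.87% lower. The design, with 1 group of 2 animals, allows no test between them.

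All 10 members past 1.2-fold were mitotic, of 27, and 0 of 17 replication members were. The median ratio was 0.04 for replication and 0.20 for mitotic members, a difference of -0.16. The summed counts gave 0.07 (95% counting interval 0.02 to 0.12) for replication and 0.24 (0.20 to 0.27) for mitotic members. By the other deposited table, that in kallisto layout, 2 replication members and 11 mitotic members were past 1.2-fold. The share of all genes past that line was not counted in that table. Transcripts of the sets also differed in base composition, at a median GC content of 52.5% in replication members, 48.1% in mitotic members and 50.7% in protein-coding genes. After a linear trend on length and GC was taken out of the ratios, 6 members were past 1.2-fold, all mitotic, against 9.74% of protein-coding genes higher, and the difference of medians was still -0.16. Whether the 2 sets truly differ between animals of this kind was not tested, since n is 1 pair.

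Nusap1 had 278 counts in replicate 1 and 199 in replicate 2, at a log2 ratio of 0.41. Cdk1 had 402 and 291 counts, at a ratio of 0.40 (95% counting interval 0.18 to 0.62). Kif20a had 366 and 266 counts, at a ratio of 0.39. These 3 had the largest ratios, and each interval lay above 0. Mki67 had 3848 and 2912 counts, and its ratio of 0.33 had the narrowest interval, 0.26 to 0.40, or 1.2-fold to 1.32-fold. The others past 1.2-fold were Cenpf at 0.32, Kif11 at 0.32, Tpx2 at 0.31, Cenpa at 0.30, Ccna2 at 0.28 and Ube2c at 0.27. The interval of Ube2c, which had 175 and 138 counts, ran from -0.06 to 0.61.

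By mitotic role, past 1.2-fold were 4 of 6 spindle and cytokinesis genes and 0 of 7 mitotic kinases, against 10.8% of all genes. The ratios of the kinases were all above 0, between 0.02 for Aurkb and 0.17 for Bub1. Summed counts gave 0.26 (95% counting interval 0.17 to 0.34) for spindle genes and 0.11 (-0.01 to 0.23) for kinases, so that the intervals overlap, and the difference between roles was not tested. Prc1, with 468 and 453 counts, had a ratio of -0.02, the lowest of the spindle genes. Ccnb1 and Ccnb2 had ratios of -0.01 and 0.01. Cenpe had 374 and 361 counts at a ratio of -0.02, although its TPM was 1.53 in replicate 1 and 2.00 in replicate 2. Its TPM ratio was thus -0.39 on the log2 scale, with effective lengths of 7557 bases in replicate 1 and 5556 bases in replicate 2. The ratios of counts and of TPM had opposite signs in 5 of 44 members, Tk1, Gins2, Ccne2, Aurkb and Prc1. Of these the widest gap was in Gins2, at -0.12 by counts and 0.40 by TPM. Promoter letters did not sort the mitotic members cleanly by ratio. The 17 with CHR letters had a median of 0.20 and the 5 without had 0.11, but Nusap1, with the largest ratio, had no letters of any of the 3 kinds in its window. The lowest ratio was that of Ccne1, which had 81 and 89 counts, at -0.20 (95% counting interval -0.66 to 0.24). Just past the line of 1.2-fold lay Ube2c at 0.27, and just short of it lay Cdc20 and Kif23, both at 0.24.

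**Figure D4:**
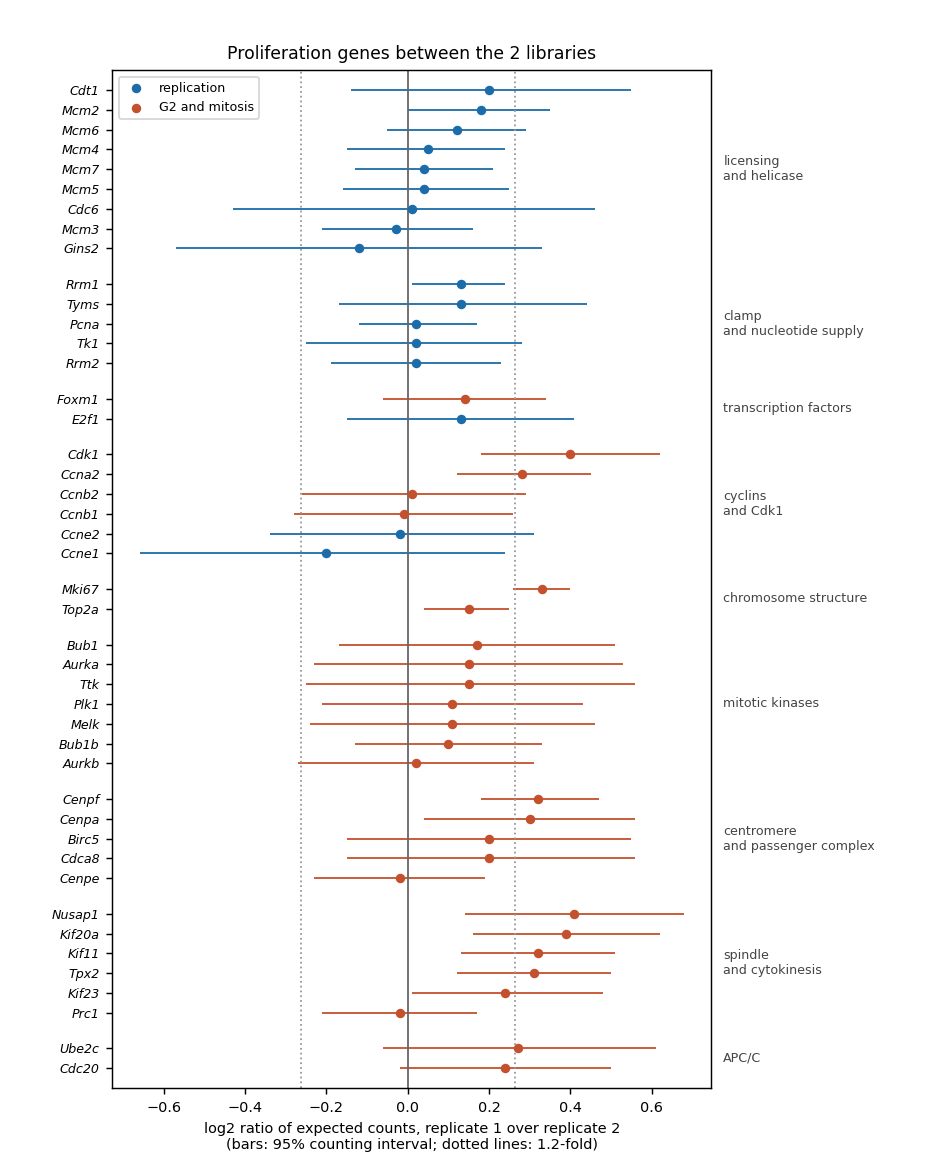
Log2 ratio of expected counts, replicate 1 over replicate 2, for each of the 44 proliferation genes, grouped by role, with 95% counting intervals. The dotted lines mark 1.2-fold in each direction: 10 mitotic members lie past the right one, from 0.27 to 0.41, and no member lies past the left one.

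Cell cycle genes outside the list are given beside the members, and the lists were not tested against each other. Of 41 other replication genes, 40 passed the same filter on counts, at a median ratio of 0.02, with 22 above 0, 4 at least 1.2-fold higher and 0 at least 1.2-fold lower. Those 4 of 40 are near the 10.8% of all genes, whereas 0 of 17 replication members passed that line. Of 75 other mitotic genes the median was 0.24, with 66 above 0, 35 at least 1.2-fold higher and 1 lower. The highest other replication genes by TPM were Dut, which removes dUTP, at 8.92 and 8.50 TPM, the clamp loader subunit Rfc2 at 7.99 and 8.67 TPM, and Tipin of the fork protection complex at 8.19 and 8.21 TPM. The highest other mitotic genes were the chromatin protein Hmgb2 at 20.3 and 20.2 TPM, the kinetochore protein Zwint at 16.3 and 13.7 TPM and the lamin Lmnb1 at 15.3 and 13.6 TPM. Over both lists the largest ratios were 0.85 for the histone kinase Haspin, with 63 and 33 counts, and 0.83 for Dscc1, with 34 and 18 counts. The lowest were -0.32 for the centromere gene Cenpp and -0.26 for the GINS gene Gins1.

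**Figure D5:**
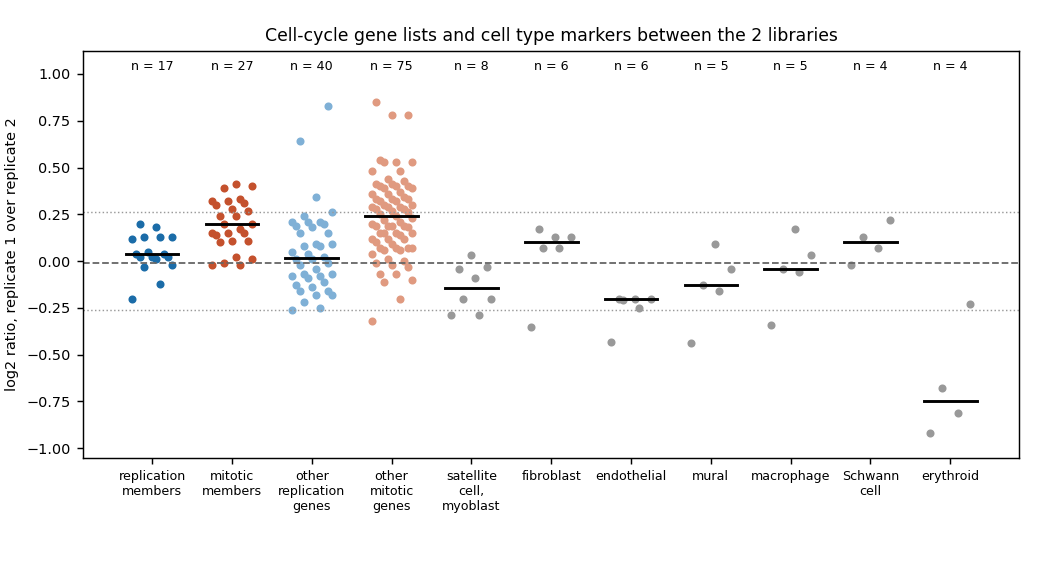
Log2 ratio of replicate 1 over replicate 2 for each gene with a mean count of 20 or more, by cell cycle list and by cell type marker list, with a bar at each median. The dashed line is the median of all protein-coding genes at -0.01, and the dotted lines mark 1.2-fold: mitotic members centre on 0.20 and other mitotic genes on 0.24, while both replication lists lie at 0.04 and 0.02.

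Markers of the cells that divide or that fill the tissue moved in several directions, and their part in the mitotic ratios was not tested. All 8 satellite cell and myoblast markers were above 1 TPM, summing to 120 TPM for replicate 1 and 121 TPM for replicate 2. Of their ratios 1 of 8 was above 0, the median was -0.14, and 2 were at least 1.2-fold lower in replicate 1. Their summed counts gave a ratio of -0.08 (counting interval -0.13 to -0.03). Their highest gene was Myog, at 60.4 and 59.0 TPM. The 6 fibroblast markers summed to 2512 and 2274 TPM, with 5 of 6 ratios above 0 and a median of 0.10. The 4 Schwann cell markers summed to 464 and 399 TPM, with 3 of 4 above 0 and a median of 0.10. The 6 endothelial markers were all lower in replicate 1, at 149 and 161 TPM and a median of -0.20.

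The 5 mural markers summed to 173 TPM in both libraries, with 4 of 5 ratios below 0, a median of -0.13 and 3 counting intervals below 0. The lowest was that of the smooth muscle myosin Myh11, at -0.44. The 5 macrophage markers summed to 42.7 and 39.5 TPM, with 2 of 5 above 0. Erythroid genes had 812 TPM for replicate 1 and 1437 TPM for replicate 2 over 6 genes, and all 4 with a mean count of 20 or more were lower in replicate 1. Their summed counts gave a ratio of -0.86 (-0.88 to -0.83). That direction is the opposite of the mitotic members'. Lymphocyte genes were near the floor: the 5 markers summed to 0.510 and 0.180 TPM, or 18 and 9 counts, a ratio of 0.93 (95% counting interval -0.30 to 2.27), and Cd3g was at 0 in replicate 2.

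Transcript assignment was firm for most members and unsettled for a few. The transcript with the most TPM was the same in both kinds of deposited table for 39 of 44 members. It was the same in both libraries of the main tables for 40. A median of 7.71% of a member's TPM in replicate 1 and 8.53% in replicate 2 sat in transcripts not annotated as protein-coding. For 16 members that share was 10% or more in both libraries.

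For 5 members the transcript with the highest TPM over both libraries was not protein-coding. Gins2 was led by Gins2-204, a retained-intron transcript of 511 bases, with 72.4% of its TPM in replicate 1 and 76.3% in replicate 2. Tyms was led by Tyms-205 (50.1% and 38.8%) and Cenpa by Cenpa-202 (47.2% and 40.4%), both annotated as targets of nonsense-mediated decay, the pathway that destroys messages with an early stop. Prc1 was led by the retained-intron transcript Prc1-214, at 37.1% and 30.4%, which led in both libraries, as did those of Gins2, Tyms and Cenpa. Ccne2 was led by the processed transcript Ccne2-205 in replicate 1 only, at 52.1%. In replicate 2 it held 24.8%, under the 29.2% of the protein-coding Ccne2-202, and in the second table it was listed at 0 in both libraries. In counts, which weigh a transcript by its length, transcripts of Gins2 other than protein-coding held 55.1% and 37.7%. By TPM, such transcripts held 92.0% of Gins2, 86.2% of Tyms, 84.1% of Cenpa, 58.3% of Ccne2 and 39.4% of Prc1 in replicate 1. In replicate 2 they held 52.6% of Cenpa, 50.7% of Ccne2 and 32.1% of Prc1. There the protein-coding Gins2-201 and Tyms-201 held 15.06% and 14.98%. In Kif23, led by a protein-coding transcript, the other kinds held 61.3% and 52.8%. In Top2a, also led by a protein-coding transcript, they held 37.2% and 32.8%. The TPM given for Gins2, Tyms, Cenpa, Ccne2 and Kif23 thus rests mostly on transcripts not annotated as protein-coding. That for Prc1, Top2a and some others rests on them in part.

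Some splits depended on the table or the animal. Kif20a-201 held 76.2% of Kif20a TPM in replicate 1 but 0.780% in replicate 2, where Kif20a-202, a transcript of nearly equal length, held 63.2%. In the second table Kif20a-201 held 78.2% and 75.4%. Transcripts of Pcna other than protein-coding held 2.67% and 1.73% in the main tables but 41.5% and 37.3% in the second. No statement about a change in splicing between the animals is made from such splits.

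Overlapping genes and copies leave some members uncertain. Of the 44, 21 overlapped another annotated gene and 17 overlapped 1 on the opposite strand, and the strand setting of the counting is not known from the labels or headers. Ube2c shares 1662 bases with Tnnc2, the fast troponin C gene of muscle, which had 124103 counts in replicate 1 and 114928 in replicate 2 against 175 and 138 for Ube2c. Gins2 overlaps Gse1, which had 1422 and 1590 counts. Of the 10 members past 1.2-fold, Ccna2, Kif20a, Nusap1 and Ube2c overlapped a gene with a mean count of 20 or more. Without members of that kind, 6 of 32 were past 1.2-fold, and among the 23 that overlap no gene at all there were 2, Cdk1 and Cenpa. Those 2 of 23 are no larger a share than the 10.8% of all genes, so with both roles together these members showed no excess past 1.2-fold. Both were among the 12 mitotic members that overlap no gene, whose median ratio was 0.15. Of the 11 replication members that overlap no gene, 0 were past 1.2-fold. A further 8 mitotic members overlap only genes with a mean count under 20, and 4 of them were past 1.2-fold.

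Processed pseudogenes, copies of a message pasted back into the genome, took few reads. Pcna-ps2, which matches Pcna at 99.2% over 781 bases, had 51.9 and 47.6 counts against 815 and 764 for Pcna. Gm5487, a copy of Mcm7, had 28.4 and 21.1 counts against 584 and 540 for Mcm7. The Ccnb1 copies Gm12856 and Ccnb1-ps had 26.96 and 13.67, and 10.4 and 7.09 counts, against 239 and 229 for Ccnb1. The genes Gm21926 and Zfp125, with 74 and 88, and 73.9 and 74.5 counts, match Tyms over 367 and 363 of its 3163 bases only. Fractional counts, which show that reads were shared out between genes, occurred in 7 members: Mcm7, Pcna, Tyms, Ccnb1, Foxm1, Top2a and Cdc20. The other 37 had whole counts (within 0.005) in both libraries, as did 85.1% of protein-coding genes past the filter.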

How the data were processed

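Total RNA of 2 gastrocnemius muscles was measured. In the deposited RSEM-style tables, values per gene and per transcript are expected counts, posterior mean counts and TPM, on mm10 and GENCODE M21, per the file headers and notes. The authors scaled TPM over every feature, spike-ins included, and their transcript tables add each transcript's percent of its gene. Other deposited transcript tables, with kallisto-style columns, give estimated counts and TPM. Effective lengths, which set TPM, also come from the deposited tables. Aligner, program versions and strand setting are not given in the sources used.

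For the ratios, expected counts were scaled with TMM in edgeR 4.0.16 (R 4.3.3) over endogenous genes averaging at least 10 counts. Counts were rounded to whole numbers for the scaling factors, the intervals and the summed counts, while ratios of single genes used unrounded counts. DESeq2 1.42.0 gave alternative size factors. Log2 ratios used a prior count of 0.5 and a mean expected count of at least 20, which all 44 members passed. Intervals of 95% are exact binomial (Clopper-Pearson). No p-value was computed, since 2 libraries of 1 group leave no contrast. The scaling and interval steps were tested on simulated data. Copies were pseudogenes aligned by megablast over 300 bases or more at 85% identity or more to a member's leading protein-coding transcript. Promoter sequences are those of RefSeq on GRCm38.p6, matched by symbol. Every member is named. Of the other cell cycle lists, the 3 genes with the highest mean TPM of each and the 2 largest and 2 smallest ratios over both are named. The members and all lists were chosen with earlier results of these data known.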

Additional observations from a re-analysis of the deposited data

How the results depend on the processing

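Across 85 alternative values, 66 stayed within a limit, 19 moved and 0 reversed. The limit was the SD of the 2 libraries for levels and 1.5 times for counts. For log2 ratios between the animals it was a counting error of 0.0293, or 0.0616 for the difference of medians. Some values could not leave that limit. Either library alone always lies within the SD of a level. Rescaling a library shifts both sets nearly alike, so their difference stays. All 44 members passed the filter on counts, so dropping it changed nothing. Median TPM and counts cannot change sign. The 66 thus overstates how much was tested. The median level of 4.29 TPM became 6.27 in the second table, 4.61 with posterior mean TPM, 8.95 rescaled over protein-coding genes alone, 4.98 as a mean and 4.76 over members that overlap no other gene; either library alone gave 4.16 to 4.43. The log2 ratio of replication over mitotic medians, 0.46, became 0.26 in the second table and 0.25 with means, and 0.41 to 0.51 in either library alone. The median member ratio of 0.13 became 0.17 with library totals, 0.16 with spike-in totals and 0.09 after a linear trend on length and GC was taken out; the median of all protein-coding genes was 0.03 and 0.02 under those totals. The count of 10 members past 1.2-fold, all mitotic, became 0 at 1.5-fold, 6 with that trend removed, 6 without members that overlap a gene with a mean count of 20 or more, and 2 of 23 without any that overlap a gene, no larger a share than the 10.8% of all genes; replication members numbered 2 in the second table. With the trend removed, 9.74% of protein-coding genes were at least 1.2-fold higher. The cause was not tested, except that fewer members entered the overlap counts. The difference of replication minus mitotic median ratios, -0.16, ranged from -0.16 to -0.10. Members at 1 TPM numbered 43 to 44 in either library alone, and shared leading transcripts 36 to 38. The trend, overlap and position alternatives were chosen after seeing the data. No paired analysis was possible because there is 1 group. Counts of 81 to 402 in most members leave wide intervals, so gene-level ratios under 1.2-fold are mostly not detectable at this depth.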
